A study of Homo sapiens with 18 samples.

Results

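The genes described here are 9 genes of the major histocompatibility complex (MHC) class I antigen presentation pathway, HLA-B, HLA-C, HLA-E, B2M, TAP1, TAP2, TAPBP, PSMB8 and PSMB9, chosen by name and matched by Ensembl identifier to 9 of the 16575 gene rows of a table of CAGE values. CAGE sequences the capped 5′ ends of transcripts, so each tag stands for 1 transcript start and the value of a gene does not scale with its length. The table holds 18 libraries, 6 for each of the cell lines CAL-29, HT-1376 and RT-112, all 3 derived from human bladder carcinomas. Every line was transduced with lentivirus in 2 rounds at a multiplicity of infection of 3, first with WWOX, a tumour suppressor with WW domains, or its blank vector, and then with AP-2α (gene TFAP2A), AP-2γ (gene TFAP2C) or their blank vector, the last 2 being transcription factors. The first letter of a variant gives the first round (K for the blank, W for WWOX) and the second letter gives the second round (K for the blank, A for AP-2α, C for AP-2γ), so that KK is the double control and KA, KC, WK, WA and WC are the 5 others. All 18 libraries, controls included, therefore come from cells that carry 2 vectors and were selected with puromycin at 1 µg/mL and G418 at 400 µg/mL. Both transgenes were driven by the CMV promoter. Each variant of a line is 1 library, so the 3 lines serve as the replicates of a variant, and the 6 variants of a line are derivatives of it, so that p-values measure the spread between these libraries only, which may in part be technical. RT-112 was grown in RPMI-1640 and the other lines in DMEM, and the medium cannot be told apart from the line.

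Class I molecules show peptides from inside the cell to cytotoxic T cells. The proteasome cuts proteins into peptides, and under interferon its catalytic subunits are replaced by PSMB8 and PSMB9 (with PSMB10), which form the immunoproteasome. The transporter TAP, a dimer of TAP1 and TAP2, carries the peptides into the endoplasmic reticulum, where tapasin (TAPBP) holds the empty heavy chain beside the transporter until a peptide is bound. The heavy chain (HLA-B and HLA-C among the classical molecules, HLA-E for a ligand of natural killer cell receptors) leaves for the surface only together with the light chain, β2-microglobulin (B2M). Loss or lowering of these genes is a known way in which tumours, bladder cancers among them, avoid T cells. NLRC5 is a transactivator of class I genes.

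The recovered totals ran from 13357102 to 17958572 reads on genes per library, at which 3 reads, taken as the least count that differs from none, correspond to 0.158 to 0.213 CPM (counts scaled to the library total). All 12 epithelial and urothelial markers were listed, with a summed level of 4914 to 26193 CPM per library, but not all were expressed in every line. UPK3A was at 0 CPM in RT-112 and at most 0.11 CPM in HT-1376, where UPK2 was at most 0.79 CPM. Of 8 leukocyte markers only CD14 was listed, at 0.5 CPM at most. The library labelled CAL-29 KC did not resemble its line: its median correlation was 0.741 with the other CAL-29 libraries and 0.94 with those of HT-1376, so it is given apart and was left out of every comparison between lines. The introduced genes gave a mixed check of the labels. WWOX was listed at 18.4 to 22.3 CPM in the RT-112 libraries labelled W and at 23.5 to 26.0 CPM in those labelled K, and at 18.6 to 23.1 CPM and 16.95 to 24.7 CPM in those of HT-1376. In CAL-29 the library labelled WK reached 155 CPM against 63.7 CPM in KK, but WA and WC were at 69.3 and 62.4 CPM. Whether tags of the transgenes were counted to these genes was not tested. TFAP2A stood at 46.8 CPM in RT-112 KA against 18.01 CPM in KK. TFAP2C stood at 264 CPM in RT-112 KC against 57.9 CPM in KK but also at 180 CPM in RT-112 WA, which was labelled with AP-2α and not AP-2γ. Variants are therefore named below as the labels name them.

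All members but B2M, on chromosome 15 (GRCh38, GENCODE 44, 44711358 to 44718851, plus strand), lie in the MHC on chromosome 6. In the order of position they are HLA-E (30489509 to 30494194, plus strand), HLA-C (31268749 to 31272130, minus strand), HLA-B (31353872 to 31367067, minus strand), TAP2 (32821833 to 32838739, minus strand), PSMB8 (32840717 to 32844679, minus strand), PSMB9 (32844136 to 32859851, plus strand), TAP1 (32845209 to 32853816, minus strand) and TAPBP (33299694 to 33314284, minus strand). The annotated spans of PSMB9, PSMB8 and TAP1 overlap on opposite strands, and whether the counting used the strand is not given in the sources used here. The HLA heavy chain genes are near-identical over long stretches and highly variable between people, so the split of tags among HLA-B, HLA-C, HLA-E, HLA-F and HLA-G is uncertain, the more so where the alleles of a line differ from the reference.

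CAGE reads the transcript start, so the sequence around the start is shown for the pairs on which the results below turn. These are HLA-B and HLA-C, neighbouring heavy chain genes with different levels in RT-112, TAP1 and PSMB9, which start back to back, and B2M, the partner of every heavy chain. Each window runs from 250 bases before to 50 bases after the RefSeq start (GRCh38.p14), 5′ to 3′ on the strand of the gene, and capitals mark matches on either strand to GAAANNGAA (the core of an interferon-stimulated response element), GGGNNTTCC (a κB site), TGACG (the core of the X2 box), CCAAT (the Y box) and GCCNNNGGC (an AP-2 site), with overlapping matches run together.
HLA-B (chr6:31357130-31357429, minus strand): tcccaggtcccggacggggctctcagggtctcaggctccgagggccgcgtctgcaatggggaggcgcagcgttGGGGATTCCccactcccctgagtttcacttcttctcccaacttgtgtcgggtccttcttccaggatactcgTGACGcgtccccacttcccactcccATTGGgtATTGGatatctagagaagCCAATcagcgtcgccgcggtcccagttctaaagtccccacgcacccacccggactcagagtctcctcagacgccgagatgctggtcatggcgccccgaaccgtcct
HLA-C (chr6:31272043-31272342, minus strand): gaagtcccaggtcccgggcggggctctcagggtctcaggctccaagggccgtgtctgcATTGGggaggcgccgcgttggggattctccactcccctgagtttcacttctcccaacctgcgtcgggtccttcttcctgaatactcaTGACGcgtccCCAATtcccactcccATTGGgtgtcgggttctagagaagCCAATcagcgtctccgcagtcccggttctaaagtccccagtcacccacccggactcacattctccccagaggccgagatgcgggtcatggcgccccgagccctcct
B2M (chr15:44711267-44711566, plus strand): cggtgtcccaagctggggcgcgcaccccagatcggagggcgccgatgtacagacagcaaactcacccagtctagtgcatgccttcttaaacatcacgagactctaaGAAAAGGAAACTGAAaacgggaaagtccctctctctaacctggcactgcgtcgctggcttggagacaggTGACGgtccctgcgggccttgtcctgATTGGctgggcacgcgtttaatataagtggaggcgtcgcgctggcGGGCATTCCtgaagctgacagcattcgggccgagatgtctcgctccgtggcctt
TAP1 (chr6:32853655-32853954, minus strand): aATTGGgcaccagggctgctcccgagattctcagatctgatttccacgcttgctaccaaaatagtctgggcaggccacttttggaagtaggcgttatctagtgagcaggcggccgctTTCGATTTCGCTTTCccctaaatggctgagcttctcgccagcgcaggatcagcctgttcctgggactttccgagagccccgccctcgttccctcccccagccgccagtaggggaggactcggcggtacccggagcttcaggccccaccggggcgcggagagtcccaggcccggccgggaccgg
PSMB9 (chr6:32853942-32854241, plus strand): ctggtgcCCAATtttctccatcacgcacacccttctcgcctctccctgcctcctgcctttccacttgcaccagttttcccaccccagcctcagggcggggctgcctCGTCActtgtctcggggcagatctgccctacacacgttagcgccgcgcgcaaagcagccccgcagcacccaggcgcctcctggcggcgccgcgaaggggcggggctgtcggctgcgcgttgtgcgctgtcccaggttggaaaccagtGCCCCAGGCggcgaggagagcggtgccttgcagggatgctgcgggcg

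The HLA-B and HLA-C windows shared 269 of 304 aligned positions (88.5%). Both held TGACG and CCAAT on the same side of the start, and HLA-B held a κB match, 177 bases before its start, whose aligned stretch in HLA-C carried C9T, counted from 1 at the 5′ end of the match. The starts of TAP1 and PSMB9 lay 488 bases apart on opposite strands, and the TAP1 window held 2 overlapping matches to GAAANNGAA. The promoter table held 10 windows for 8 of the 9 members. A member was counted where any of its windows matched, whereas the shares of all genes are per window. GAAANNGAA occurred in those of 5 members (B2M, PSMB8, TAP1, TAP2 and TAPBP), against 8.1% of 35116 windows of all genes, and GGGNNTTCC in those of 4 against 6.6%. TGACG occurred in those of 6 against 24.6% and CCAAT in those of 5 against 34.6%. GCCNNNGGC was found near the start of 1 member, PSMB9, against 23.2% of all windows. These are matches of letters and not measured binding.

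Among the 9 members HLA-B, a classical heavy chain, differed most from RT-112 in both other lines. It was low in every RT-112 library, at 28.8 CPM in KA, the lowest, and 125 CPM in WA, the highest, with a median of 50.6 CPM. In HT-1376 its lowest level was 663 CPM in KK, its median 1076 CPM and its highest 1711 CPM in KC. CAL-29 gave 577 CPM in KK, 881 CPM in KA, 1128 CPM in WK, 383 CPM in WA and 458 CPM in WC. The RT-112 libraries thus lay wholly below those of the other lines, which overlapped each other. The means were 70.0 ± 42.3 CPM (SD, n = 6) in RT-112, 1125 ± 417 CPM (n = 6) in HT-1376 and 685 ± 312 CPM (n = 5) in CAL-29. On the log2 scale, with 0.5 CPM added, HLA-B was higher by 4.12 ± 0.37 (SE) in HT-1376 than in RT-112 (limma, adjusted p = 4.88e-07) and by 3.41 ± 0.40 in CAL-29 than in RT-112 (limma, adjusted p = 5.43e-06).

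HLA-C, the neighbouring heavy chain, did not share this low level in RT-112. It ran from 541 to 876 CPM in RT-112 (median 637), from 1193 to 2300.4 CPM in HT-1376 (median 1611) and from 642 to 1019 CPM in CAL-29 (median 981). Only the HT-1376 libraries stood apart, by a log2 difference of 1.29 ± 0.21 over RT-112 (limma, adjusted p = 0.000129), and the CAL-29 and RT-112 ranges overlapped. The ratio of HLA-B to HLA-C within a library does not depend on the scaling of that library. It lay between 0.053 and 0.146 in RT-112, between 0.442 and 0.772 in HT-1376 and between 0.588 and 1.11 in CAL-29, so no RT-112 library reached the ratio of any library of the other lines.

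HLA-E, the non-classical chain, was expressed at 223 to 345 CPM in RT-112 (median 266), at 504 to 1102 CPM in HT-1376 (median 655) and at 204 to 375 CPM in CAL-29 (median 294). HT-1376 was again wholly above the others, by 1.31 ± 0.18 over RT-112 (limma, adjusted p = 2.79e-05). CAL-29 and RT-112 differed by 0.10 ± 0.19 in log2 terms, which missed the threshold.

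B2M was the most abundant member in most libraries. Its level was 1276 to 1644 CPM in RT-112 (median 1418), 2230.2 to 6256 CPM in HT-1376 (median 3464) and 1342 to 3481 CPM in CAL-29 (median 1847). The RT-112 libraries differed from each other by 1.29-fold between the lowest and the highest, against 2.81-fold in HT-1376. B2M was higher in HT-1376 than in RT-112 by 1.37 ± 0.23 (limma, adjusted p = 0.000179), and the ranges of CAL-29 overlapped those of the other lines.

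**Figure D1:**
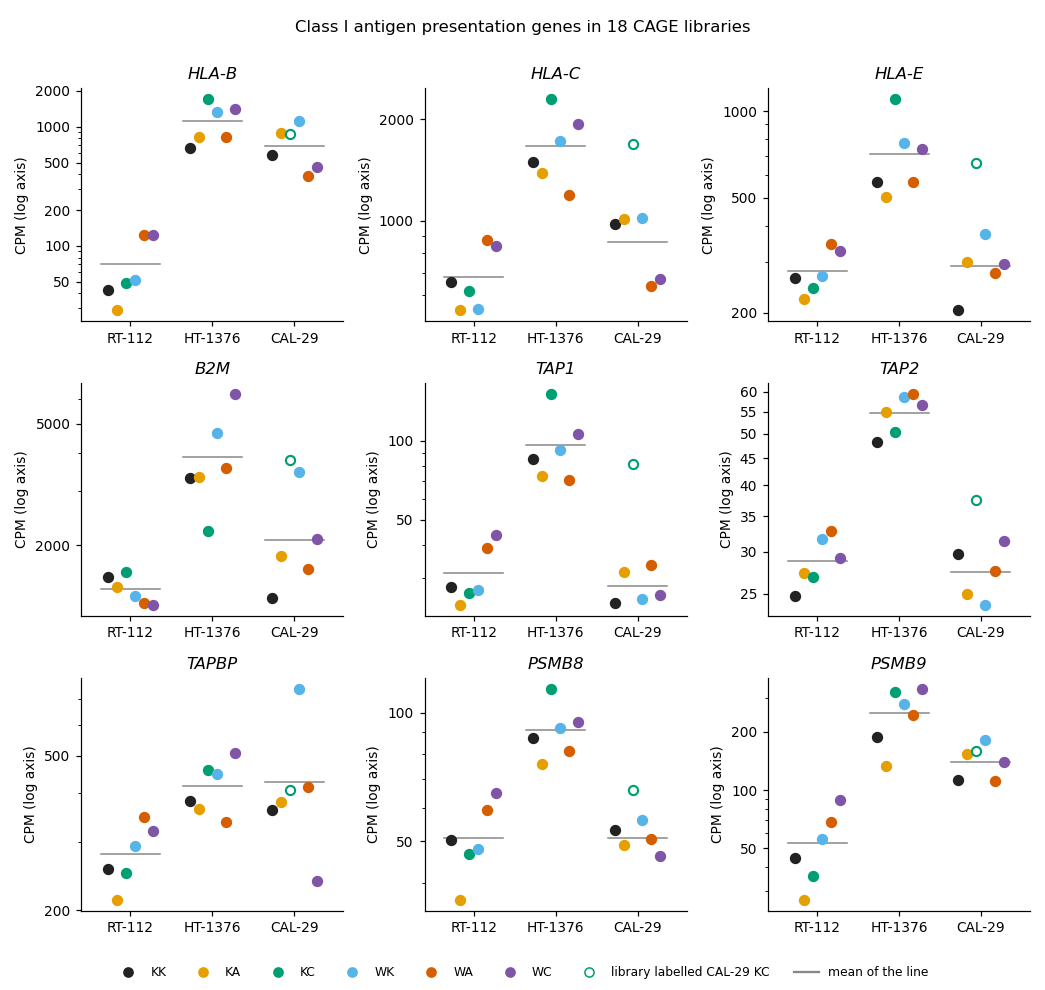
Level of each of the 9 genes in CPM (log axes that differ between panels) in the 18 libraries, grouped by cell line and coloured by variant, with a grey line at the mean of the 6 RT-112, 6 HT-1376 and 5 CAL-29 libraries and an open circle for the library labelled CAL-29 KC. HLA-B in RT-112 sits between 28.8 and 125 CPM, below every library of the other lines, and TAP1 in HT-1376 sits above every RT-112 library and every CAL-29 library but the one drawn open.

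Among the genes that bring the peptides to the heavy chain, the TAP subunits separated HT-1376 from the other lines. TAP1 was at 23.6 to 43.8 CPM in RT-112 (median 27.2) and at 70.7 to 151 CPM in HT-1376 (median 88.5). CAL-29 gave 23.9 CPM in KK, 31.5 CPM in KA, 24.9 CPM in WK, 33.6 CPM in WA and 25.8 CPM in WC. The CAL-29 values all fell within the RT-112 range, and both lay below every HT-1376 library. TAP1 was higher in HT-1376 than in RT-112 by 1.60 ± 0.20 (limma, adjusted p = 1.12e-05) and lower in CAL-29 than in HT-1376 by 1.68 ± 0.21, the fitted log2 difference being -1.68 (limma, adjusted p = 1.87e-05). TAP2 ran from 24.8 to 32.8 CPM in RT-112, from 48.3 to 59.4 CPM in HT-1376 and from 23.8 to 31.5 CPM in CAL-29, and was the least variable member within HT-1376, where the SD was 8.21% of the mean. Among the members tapasin showed the smallest contrast between HT-1376 and either other line. TAPBP was at 212 to 349 CPM in RT-112, 339 to 509 CPM in HT-1376 and 237 to 747 CPM in CAL-29, and these ranges overlapped. Its log2 difference of 0.58 ± 0.21 between HT-1376 and RT-112 passed the test (limma, adjusted p = 0.0277), but not after the library scaling described below or without any 1 of 7 libraries, RT-112 KK, KA, KC or WK or HT-1376 KA, KC or WC (limma, adjusted p = 0.0508 to 0.0845).

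The 2 immunoproteasome subunits did not follow the same order. PSMB8 was at 36.5 to 64.7 CPM in RT-112 (median 49.1), at 75.8 to 114 CPM in HT-1376 (median 89.8) and at 46.2 to 56.2 CPM in CAL-29 (median 50.6). PSMB9 was at 27.1 to 89.3 CPM in RT-112 (median 50.3) and at 134 to 334 CPM in HT-1376 (median 262). CAL-29 gave 113 CPM in KK, 153.5 CPM in KA, 180.3 CPM in WK, 111 CPM in WA and 139.8 CPM in WC for PSMB9. Every CAL-29 library was thus above every RT-112 library for PSMB9, whereas for PSMB8 the CAL-29 range lay inside that of RT-112. PSMB9 was higher by 2.25 ± 0.23 in HT-1376 (limma, adjusted p = 1.68e-06) and by 1.45 ± 0.25 in CAL-29 (limma, adjusted p = 0.000129) than in RT-112. For PSMB8 these differences were 0.84 ± 0.14 (limma, adjusted p = 0.00019) and 0.05 ± 0.15 (limma, adjusted p = 0.803).

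PSMB9 also parted from TAP1, the gene that starts 488 bases away on the other strand. The ratio of PSMB9 to TAP1 within a library lay between 1.15 and 2.08 in RT-112, between 1.82 and 3.46 in HT-1376 and between 3.30 and 7.24 in CAL-29. All CAL-29 libraries had a higher ratio than all RT-112 libraries, and 1 of them, WA, overlapped HT-1376. Against the constitutive subunit it replaces, PSMB8 stood between 0.181 and 0.350 of PSMB5 in RT-112, between 0.385 and 0.607 in HT-1376 and between 0.253 and 0.433 in CAL-29. PSMB9 stood between 0.130 and 0.511 of PSMB6 in RT-112, between 0.436 and 0.668 in HT-1376 and between 0.416 and 1.03 in CAL-29. PSMB10, the remaining immunoproteasome subunit, was at 64.5 to 89.2 CPM in RT-112, 75.0 to 132 CPM in HT-1376 and 51.0 to 101 CPM in CAL-29, with ranges that overlapped.

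**Figure D2:**
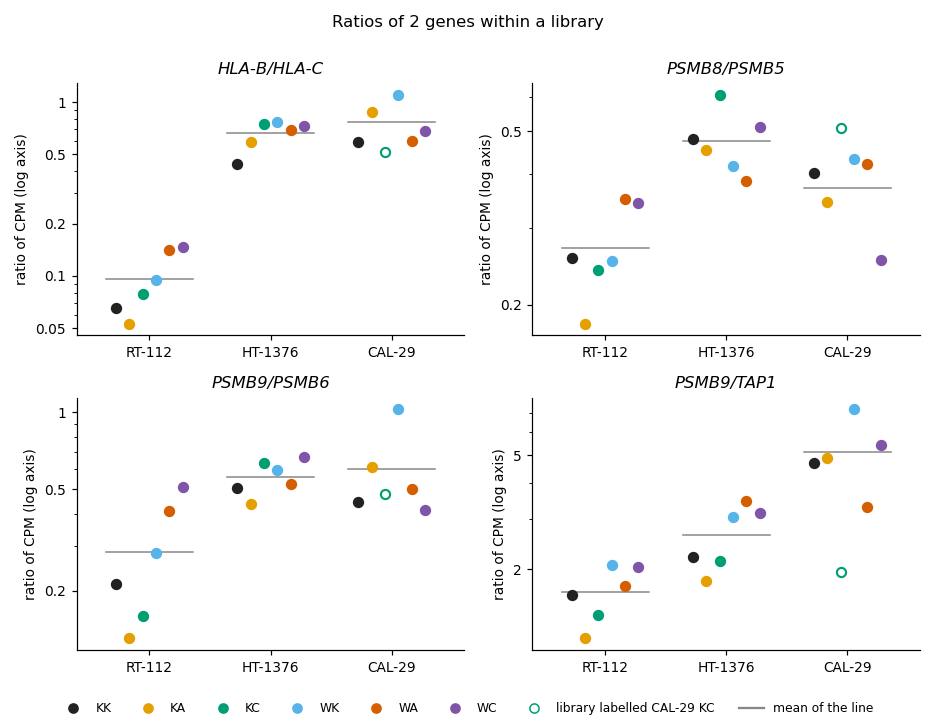
Ratio of the CPM of 2 genes within each library (log axes), by cell line and variant, with a grey line at the mean of each line and an open circle for the library labelled CAL-29 KC. The ratio of HLA-B to HLA-C is lower in all 6 RT-112 libraries than in any other, and 4 of the 5 CAL-29 libraries drawn filled have a higher ratio of PSMB9 to TAP1 than any HT-1376 library.

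Counted over the members, 9 of 9 were higher in HT-1376 than in RT-112 (limma, adjusted p under 0.05), where 61.9% of the 13022 genes tested were called and 42.7% were called higher. The median log2 difference was 1.31 over the members and 0.427 over all genes. The ranges of 8 members did not overlap between these lines, all but TAPBP, against 44.2% of all genes. From RT-112 to CAL-29, 3 of 9 were called, all higher (HLA-B, PSMB9 and TAPBP), where 71.5% of genes were called and 56.2% were called higher. The ranges of 2 of them did not overlap, against 54.5% of genes. From HT-1376 to CAL-29, 7 of 9 were called, all lower, where 61.0% of genes were called but only 17.6% were called lower. The exceptions were HLA-B, at -0.71 ± 0.40 (limma, adjusted p = 0.134), and TAPBP, at -0.05 ± 0.23 (limma, adjusted p = 0.859). The ranges of 5 members did not overlap there (HLA-C, HLA-E, TAP1, TAP2 and PSMB8), against 31.6% of genes. With so many genes called between lines, these counts describe the members beside that background and do not single them out.

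Because the median of all genes was not at 0, the directions were also read after scaling the libraries by trimmed means of M-values (TMM), which moved that median from 0.427 to 0.09 for HT-1376 against RT-112, from 0.837 to 0.144 for CAL-29 against RT-112 and from 0.466 to 0.093 for CAL-29 against HT-1376. The order with HT-1376 on top held. In HT-1376 against RT-112 8 members were called and all 9 kept their sign, HLA-B at 3.76 and PSMB9 at 1.89, and in CAL-29 against HT-1376 8 were called lower, TAP1 by a log2 difference of -2.07. With this scaling 58.9% of all genes were called in either direction in the first of these comparisons and 57% in the second. The share was 69.3% in CAL-29 against RT-112. The shares called higher alone or lower alone were not determined after this scaling. In CAL-29 against RT-112 the picture turned: HLA-B at 2.65 and PSMB9 at 0.69 remained higher, but HLA-E at -0.67, PSMB8 at -0.71, TAP1 at -0.83 and TAP2 at -0.84 were called lower, and TAPBP at -0.23, B2M at -0.35 and HLA-C at -0.38 turned negative without passing the test. Between RT-112 and CAL-29 only the higher HLA-B and PSMB9 thus held under every scaling and tool tried. CPM gives shares of a library, so fewer expressing cells and less RNA per cell cannot be told apart.

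The other genes of the pathway were taken from lists of partners. Among 6 other class I chains, 5 were higher in HT-1376 than in RT-112, beside 42.7% of all genes. HLA-F was at 0.55 to 3.56 CPM in RT-112, 92.7 to 327 CPM in HT-1376 and 23.3 to 56.7 CPM in CAL-29. HLA-F was higher in HT-1376 than in RT-112 by 6.64 ± 0.33 in log2 terms (limma, adjusted p = 1.35e-09). HLA-G was measured at up to 0.21 CPM in RT-112, near the level of 3 reads, and at 39.3 to 410 CPM in HT-1376. Among the 17 libraries compared it reached 5 CPM in HT-1376 alone. The filter thus set its direction in part, and the count of 5 includes it.

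Of 12 regulators of class I genes tested, 10 were higher and 1 was lower in HT-1376 than in RT-112, beside the 42.7% of all genes called higher. NLRC5, the class I transactivator, was at 0.18 to 0.74 CPM in RT-112, 9.80 to 21.6 CPM in HT-1376 and 4.09 to 5.51 CPM in CAL-29, a log2 difference of 4.12 ± 0.24 between HT-1376 and RT-112 (limma, adjusted p = 5.43e-09). RFX5, a subunit of the factor that binds the X box, was at 1.63 to 3.70 CPM in RT-112 and at 19.6 to 38.2 CPM in HT-1376. IRF1, which binds interferon-response elements, was at 52.0 to 99.3 CPM in RT-112, 115 to 191 CPM in HT-1376 and 125 to 246 CPM in CAL-29. Of 14 constitutive proteasome subunits 10 were higher in HT-1376 than in RT-112, with a median log2 difference of 0.948. After TMM scaling 7 were higher and 2 lower, beside 58.9% of all genes called in either direction. PSMB5 itself was at 169 to 202 CPM in RT-112, 167 to 221 CPM in HT-1376 and 120.3 to 183 CPM in CAL-29, with ranges that overlapped.

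Chaperones and trimming enzymes of the endoplasmic reticulum took another order. All 8 genes of peptide loading and trimming were higher in CAL-29 than in RT-112, beside 56.2% of all genes. After TMM scaling 6 of them were higher, beside 69.3% of all genes called in either direction. Between CAL-29 and HT-1376, where 7 members were lower, 5 of these genes were higher in CAL-29, beside 43.4% of all genes. They included HSPA5, a general chaperone of the endoplasmic reticulum, at 4.88 in CAL-29 against RT-112, and calnexin (CANX) at 3.87. These differences average over a split within CAL-29. HSPA5 was at 6321, 3903 and 6795 CPM in its KK, KA and WA but at 373 and 406 CPM in WK and WC. The HT-1376 libraries had 157 to 464 CPM. CANX was at 2145, 727 and 1679 CPM in CAL-29 KK, KA and WA and at 343 and 244 CPM in WK and WC. ERAP1, which trims peptides for class I, was at 1.16 to 2.96 CPM in RT-112, 7.23 to 44.3 CPM in HT-1376 and 7.20 to 91.6 CPM in CAL-29. ERAP2 was at 0.77 to 1.49 CPM in RT-112 and HT-1376 together and at 2.43 to 18.8 CPM in CAL-29. It reached 5 CPM in libraries of CAL-29 alone, so the filter admitted it through the line where it was high. The filter thus set the direction of ERAP2 in part, and the counts of this list include that gene. Calreticulin (CALR) was at 1787 to 2518 CPM in RT-112, 1985 to 2550.2 CPM in HT-1376 and 1414 to 4767 CPM in CAL-29, where WK lay below every other library. Its log2 difference of 0.64 between CAL-29 and RT-112 (limma, adjusted p = 0.0434) turned to -0.12 after TMM scaling. TAPBPL, a peptide editor related to tapasin, was at 53.4 to 137 CPM in CAL-29, above the 14.6 to 32.9 CPM of the other lines, in contrast to TAPBP. The proteasome activator subunits PSME1 and PSME2 overlapped between RT-112 and HT-1376, at 165 to 302 and 168 to 353 CPM for PSME1 and at 66.2 to 123 and 114 to 199 CPM for PSME2.

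All 10 genes of the class II pathway, which presents peptides from outside the cell, were higher in HT-1376 than in RT-112, beside 42.7% of all genes, and 8 of 10 were lower in CAL-29 than in HT-1376, beside 17.6%. With a filter of 5 CPM in 3 libraries only 6 of these genes were tested, of which 6 and 5 were called. HLA-DRA, HLA-DPA1, HLA-DPB1, HLA-DQA1, HLA-DMB and CIITA reached 5 CPM in libraries of HT-1376 alone. The filter thus set the direction of these genes in part, and the stricter filter does not remove this. The class II counts therefore describe levels and are not a test of the list. CD74, the invariant chain, was at most 1.15 CPM in RT-112, 12.6 to 268 CPM in HT-1376 and 17.1 to 115 CPM in CAL-29. Of 18 genes of other function in the same region of chromosome 6, 12 were higher and 2 lower in HT-1376 than in RT-112, where 61.9% of all genes were called and 42.7% were called higher. After TMM scaling 9 of the 18 were higher and 4 lower, beside 58.9% of all genes called in either direction. Their median was 0.9 beside 1.31 over the members. ABCF1 was the highest of them, at 2.91, and HSD17B8 the lowest, at -2.80. The contribution of the position in the MHC to the members' values was not tested.

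**Figure D3:**
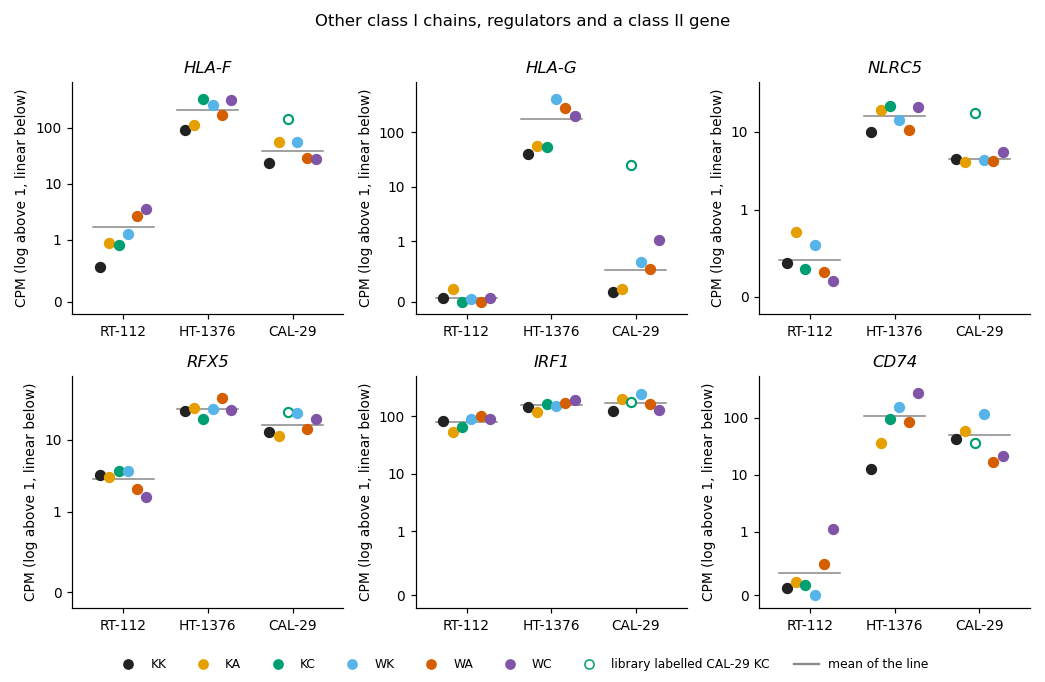
Levels in CPM of 6 genes outside the set of 9 (axes logarithmic above 1 CPM and linear below), by cell line and variant, with a grey line at the mean of each line and an open circle for the library labelled CAL-29 KC. HLA-F, NLRC5, RFX5 and CD74 are lowest in RT-112, and HLA-G in HT-1376 splits into 39.3 to 54.9 CPM in the K libraries and 197 to 410 CPM in the W libraries.

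The genes whose profile over the 17 libraries was most like the mean of the members, each member scaled to equal variance, were EFNA1 (r = 0.969), HCP5 (r = 0.964), MIR6891 (r = 0.962), SLC12A4 (r = 0.953) and PLAAT4 (r = 0.953). HCP5, a non-coding gene of the MHC at chr6:31463170-31478936, was at 0.05 to 0.18 CPM in RT-112 and 9.01 to 28.5 CPM in HT-1376. MIR6891 lies inside the HLA-B gene, at chr6:31355224-31355316 on the same strand, so its tags cannot be taken as independent of HLA-B. EFNA1, an ephrin ligand on chromosome 1, was at 22.1 to 39.0 CPM in RT-112, 70.0 to 130 CPM in HT-1376 and 27.6 to 59.2 CPM in CAL-29. The 17 libraries fall into 3 lines, and these values mostly describe the line levels.

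Between members, the 36 pairwise correlations over 17 libraries had a median r of 0.744 (0.275 to 0.962). Taken as deviations from the mean of the line, they had a median of 0.606 but ran from -0.294 to 0.862. HLA-B moved with HLA-C (r = 0.862), PSMB9 (r = 0.85) and PSMB8 (r = 0.823) among the libraries of a line, and TAP1 moved with PSMB8 (r = 0.806). B2M and TAP2 did not share this: within lines B2M had r = -0.031 with HLA-C and -0.294 with TAP1, and TAP2 had r = -0.01 with TAP1, its partner in the transporter. These r values are descriptions over libraries that share a line, and each rests on 1 library per variant and line.

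The second question of the design was whether WWOX, AP-2α or AP-2γ shifted these genes. No member passed in any of the 5 variants against KK (limma, n = 3 lines per variant, lowest adjusted p = 1), where 0% of the genes tested were called, and no member had an unadjusted p under 0.05. The lowest and highest log2 differences of members were 0.00 (HLA-C) and 0.75 (HLA-B) for WK, -0.26 (PSMB8) and 0.12 (B2M) for KA, 0.13 (TAPBP) and 0.85 (HLA-E) for KC, -0.17 (HLA-C) and 0.42 (HLA-B) for WA, and 0.04 (TAPBP) and 0.75 (HLA-B) for WC. The value of HLA-E for KC was 0.73 without the library labelled CAL-29 KC. That fit kept CAL-29 KK, so 0.73 contains a difference between lines. When 1 line was left out the value ran from 0.42, without CAL-29, to 1.33. Within a line, HLA-E in KC was 0.928 times KK in RT-112 and 1.943 times KK in HT-1376. The sign of HLA-C for WK was positive under TMM scaling. The line was not a term in this fit, and its spread is contained in the error. With the cell line as a replicate block, members called remained 0 of 9 in each of the 5, also by edgeR or limma-voom on the recovered reads and without the library labelled CAL-29 KC.

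Within the lines the values were less uniform than these averages. In RT-112, HLA-B was 2.90 times KK in WA and 2.86 times KK in WC, but 0.672 times KK in KA. KA was the lowest RT-112 library for 7 of 9 members, and WA or WC the highest for 8, the exception being B2M, which was lowest in WC and highest in KC. In HT-1376, KC was the highest for 5 members, with HLA-B at 2.58, HLA-E at 1.94 and TAP1 at 1.78 times KK, and at the same time the lowest for B2M, at 0.674 times KK. In CAL-29, WK was the highest of the 5 libraries for 7 members, with B2M at 2.59, TAPBP at 2.06 and HLA-B at 1.96 times KK. HLA-B in the CAL-29 libraries WA and WC was at 0.664 and 0.794 times KK, the opposite side from RT-112. Each of these is a ratio of single libraries with no replicate.

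PSMB9, the immunoproteasome subunit that separated CAL-29 from RT-112, was above KK in every line in WK and WC. In WK it was 1.25, 1.49 and 1.60 times KK in RT-112, HT-1376 and CAL-29, and in WC 1.99, 1.78 and 1.24 times, but in WA it was above KK in 2 of 3 lines and in KA in 1. HLA-E was above KK in 3 of 3 lines in WK, WA and WC, at 1.003 to 1.84 times. The same held for HLA-B and TAPBP in WK and for TAP1 and TAP2 in WC. With the library labelled CAL-29 KC it also held for HLA-B and TAP2 in KC. All variants of a line share 1 KK library, and the share of all genes above KK in every line was not determined. PSMB8, the other immunoproteasome subunit among the members, was at 0.951, 1.05 and 1.06 times KK in WK.

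**Figure D4:**
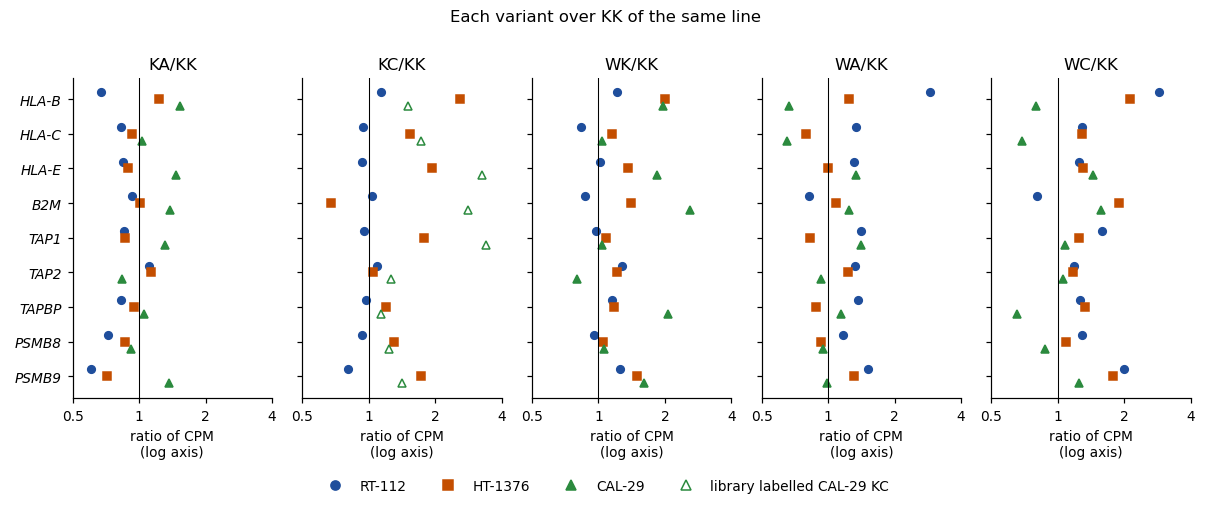
CPM of each gene in the 5 variants divided by that in KK of the same line (log axes, vertical line at 1), with a symbol for each line and an open triangle for the library labelled CAL-29 KC. In WK and WC the PSMB9 ratios of all 3 lines lie between 1.24 and 1.99, whereas HLA-B in WA lies at 2.90 in RT-112 and 0.664 in CAL-29. HLA-B, HLA-E and TAPBP in WK and HLA-E, TAP1 and TAP2 in WC also lie above 1 in all 3 lines.

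Pooled over the second transduction, with terms for the line and for AP-2, WWOX gave no called member (limma, 17 libraries, 0% of genes called). PSMB9 was the highest, at a log2 difference of 0.52 ± 0.18 (unadjusted p = 0.0109, limma adjusted p = 0.319), and HLA-C the lowest, at -0.06, a sign that TMM scaling turned. Of the 13022 genes tested, 1598 had an unadjusted p under 0.05 for WWOX, and 1 of the 9 members did. In the same fit AP-2α gave members between -0.23 (PSMB9) and 0.09 (TAP1) and AP-2γ between -0.20 (TAPBP) and 0.35 (TAP1), with 0% of genes called and no member at an unadjusted p under 0.05 in either.

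Within each line, WWOX against its control over the second transductions gave 0 called members in RT-112 (0% of genes called), in HT-1376 (8.59% called) and in CAL-29 (0.591% called). In RT-112 HLA-B had a log2 difference of 1.23 ± 0.44 and was higher in 3 of 3 pairs of libraries that shared the second transduction (unadjusted p = 0.0142, limma adjusted p = 0.51). PSMB9 had 0.97 ± 0.26 there, also in 3 of 3 pairs (unadjusted p = 0.00226, limma adjusted p = 0.323). In HT-1376 B2M had 0.69 ± 0.29, higher in 3 of 3 pairs (unadjusted p = 0.0301, limma adjusted p = 0.145). Of the 13022 genes tested, 979 had an unadjusted p under 0.05 in RT-112 and 3419 in HT-1376. Of the 9 members 2 and 1 did. B2M was lower in 3 of 3 pairs in RT-112, at -0.25 ± 0.29. The moderated F-test of equal WWOX effects in the lines, which called 3.02% of genes, called 0 members, with a lowest adjusted p of 0.282 (limma). Of the lists of partners, 2 of 6 other class I chains were higher in the W libraries of HT-1376 than in its K libraries. These were HLA-G by 2.52 ± 0.31 and MICB, a ligand of an activating receptor of natural killer cells, by 1.83 ± 0.46 (limma, adjusted p = 0.000504 and 0.0265). The 3 of 10 class II genes called higher were HLA-DQB1 at 2.21, HLA-DPA1 at 1.92 and HLA-DPB1 at 1.71, of which edgeR on the recovered reads called 1, HLA-DQB1. HLA-DPA1 and HLA-DPB1 reached 5 CPM only in W libraries of HT-1376, so the filter admitted them through the group where they were high. The listed level of WWOX overlapped between the W and K libraries of this line. HLA-DPA1 was not called by limma-voom (adjusted p = 0.0588), and with a pseudocount of 0.05 CPM none of the 10 class II genes was called, against 5 with 2 CPM. With the library labelled CAL-29 KC in the fit none of these 5 passed, HLA-G having an adjusted p of 0.143 (limma). The K libraries of HT-1376 had HLA-G at 39.3, 54.9 and 53.8 CPM and the W libraries at 410, 276 and 197 CPM, without overlap.

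The library labelled CAL-29 KC was examined by itself. Its members lay above the range of the other 5 CAL-29 libraries for 6 genes (HLA-C, HLA-E, B2M, TAP1, TAP2 and PSMB8) and inside it for 3, and inside the range of HT-1376 for 7 genes and below it for 2 (TAP2 and PSMB8). TAP1 was at 81.6 CPM, against at most 33.6 CPM in CAL-29 and 70.7 to 151 CPM in HT-1376, and HLA-G at 25.3 CPM against at most 1.07 CPM in CAL-29. In the plot of variant ratios its values therefore set the KC ratios of CAL-29, such as 3.41 for TAP1 and 3.26 for HLA-E, which are shown open.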

How the data were processed

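CAGE libraries were sequenced by the authors, mapped to hg38 with BWA and then HISAT2 2.0.5, clustered into tag clusters with Paraclu within RECLU and filtered by the irreproducible discovery rate. Which annotation was used, how clusters were assigned to genes and whether strand was used are not given in the sources used here. The deposited values are CPM per gene and library, with 2 decimals, made by the authors from raw counts. For all libraries the values were whole multiples of what 1 read is worth for 99.97 to 99.99% of values, within the rounding of 0.0051 CPM, against 17.4 to 25.7% for a wrong step, so reads were recovered for an alternative test. Of 16575 genes, 16553 were matched to a symbol. No 2 libraries agreed within sampling noise (lowest chi-square per degree of freedom 19.4).

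The values were tested as log2(CPM + 0.5) with limma 3.58.1 in R 4.3.3 over 13022 genes that reached 5 CPM in 1 library or more, with a trended prior, Benjamini-Hochberg adjustment over all genes tested and a threshold of 0.05. A difference on this scale understates that of low genes. The variants were compared with KK over all 18 libraries with no line term. The study fitted limma after voom, with model terms that are not given in the sources used here. Lines were compared over 17 libraries with the variant as a term, and WWOX and AP-2 with the line as a term. The scripts were tested on simulated data. Libraries of the same line deviated together (r between 0.742 and 0.915 for RT-112, between 0.588 and 0.896 for HT-1376 and between 0.036 and 0.881 for CAL-29, where CAL-29 KC is included), and the line is also the pairing that the labels give, so that the fit with the line as a block is the paired one. As alternatives, the pseudocount was set to 0.05 or 2 CPM, the filter to none or to 5 CPM in 3 libraries, and TMM scaling, limma-voom, edgeR 4.0.16 on the recovered reads, the line as a block, other terms and leaving out each library or line were tried. The fit without CAL-29 KC and without a block was added after seeing the data. The members and lists were chosen with earlier results of these data known. Named genes were the 9 members, a set list of partners, the 2 highest and 2 lowest called genes of other lists and the 5 genes most like the members. Some genes of these lists are not reported here and were left out of the counts over lists. Ratios, correlations and motif matches (Python 3.11.15) carry no test. The level of 3 reads covers counting error only.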

Additional observations from a re-analysis of the deposited data

Results flagged for a closer look

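HLA-G is a class I chain outside the set of 9. Its WWOX effect differed between the lines by the moderated F-test (limma, adjusted p = 0.0169). The log2 differences were 2.52 in HT-1376, 0.86 in CAL-29 and -0.12 in RT-112. The gene was at 0.21 CPM at most in RT-112 and at 0.17 to 1.07 CPM in CAL-29 without KC. At such levels the added 0.5 CPM understates a difference, so the smaller value in CAL-29 cannot be told apart from its low level. Over the alternatives the adjusted p of the F-test ran from 0.00579 to 0.341. It did not pass with limma-voom (0.199), edgeR (0.236), the pseudocount of 0.05 CPM (0.1) or the library labelled CAL-29 KC (0.341). For B2M all pairs of W and K libraries moved one way in RT-112 (mean log2 difference -0.248) and the other way in HT-1376 (0.693). The difference between these 2 lines alone was not tested, and the F-test over all 3 lines gave an adjusted p of 0.298 (limma). In the 27 groups of a member and a line, no library stood out by its gap to the others, where chance alone would mark about 1 in 20.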

How the results depend on the processing

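Members called between HT-1376 and RT-112, and between CAL-29 and HT-1376, stayed within 1.5 times the reported counts in all settings, and without 1 library each they ran from 8 to 9 and from 7 to 8. For CAL-29 against RT-112 the count rose from 3 to 6 under TMM scaling, limma-voom and edgeR (6 in each) and ran from 2 to 4 without 1 library. The main fit called 71.5% of all genes there, and TMM scaling, limma-voom and edgeR called 69.3%, 70% and 68.9%. Under these 3 settings, in this order, the difference turned negative for B2M (-0.35, -0.36, -0.36), HLA-C (-0.38, -0.38, -0.38), HLA-E (-0.67, -0.67, -0.66), PSMB8 (-0.71, -0.71, -0.71) and TAPBP (-0.23, -0.23, -0.20), and with the library labelled CAL-29 KC it turned positive for TAP1 (0.13) and TAP2 (0.0095). TMM and the tools on reads all set the median gene near 0. HLA-C turned positive in WK/KK (0.10, 0.09, 0.16) and for WWOX over all lines (0.018, 0.021, 0.029). Without 1 library or line, the log2 difference of HLA-C ran from -0.102 to 0.128 in WK/KK, from -0.470 to 0.0436 in WA/KK and from -0.166 to 0.0204 for WWOX over all lines. That of TAPBP ran from -0.140 to 0.369 in WC/KK, from -0.3125 to 0.0894 for AP-2γ over all lines and from -0.251 to 0.201 in CAL-29/HT-1376. In the same way B2M ran from -0.049 to 0.2365 in KA/KK, HLA-B from -0.140 to 0.919 in WA/KK, and TAP1 from -0.0054 to 0.188 for AP-2α over all lines and from -0.363 to 0.103 for WWOX in HT-1376. In CAL-29/RT-112 HLA-E ran from -0.0046 to 0.210, PSMB8 from -0.0206 to 0.143 and TAP1 from -0.203 to 0.0441. TAPBP lost its call there without any of 13 single libraries, all but RT-112 WA and WC, HT-1376 WC and CAL-29 WC (adjusted p = 0.0514 to 0.188, limma). HLA-C passed there without RT-112 WA or CAL-29 WC (0.0311 and 0.0421, limma), and HLA-B passed between CAL-29 and HT-1376 without CAL-29 KA (0.045, limma). The cause was not tested.

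With the cell line as a replicate block, which the pairing allows, 0 members were called in each variant, and with the block no gene was called in any of the 5 (506 genes in WK/KK at an unadjusted p under 0.05, against 38 without the block). Lone libraries, single variants per line and low counts of genes such as NLRC5 in RT-112 limit what can be read from the differences.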
